A study of Mus musculus with 12 samples.

Results

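The genes that make cholesterol and the genes that sense, export and take up sterols were examined in the livers of adult mice that had been exposed to a low dose of cadmium (LDC) and of unexposed controls. The set was defined by function and chosen with earlier results of these data known. Its counts are therefore set beside shares of all probe sets as description, not as a test of the set. It held 30 genes, of which 28 had a probe set of their own on the array and were tested. On the whole array 18193 genes had such a probe set and 12820 were tested. The 28 measured genes were 17 enzymes of cholesterol synthesis and 11 genes of sterol control, efflux and uptake. Acat2, the cytosolic acetyl-CoA acetyltransferase that precedes the mevalonate arm, and Soat2, which esterifies cholesterol, were not analysed here.

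RNA from whole liver was hybridised to Affymetrix Mouse Genome 430 2.0 arrays, with 3 arrays in each of 4 groups, females and males with and without LDC. All mice were C57BL/6J, and their livers were taken at 30 weeks of age. Exposed animals received cadmium chloride at 100 nM in drinking water. Their dams drank it from 1 week before mating, and the offspring stayed on it after weaning. Controls drank water without cadmium. The 3 arrays of a group were called biological replicates in the labels, but litters and cages were not given, so the p-values measure the spread between these arrays. In RNA from whole liver, fewer cells of a type and less RNA per cell cannot be told apart.

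Hepatocytes build cholesterol from acetyl-CoA. The mevalonate arm yields isoprenoid units, which are joined to squalene, closed to lanosterol and trimmed to cholesterol by a series of demethylations, reductions and double-bond shifts. Synthesis is governed by SREBP-2, a transcription factor that is held in the endoplasmic reticulum with its escort Scap by the Insig proteins when sterols are plentiful, and that enters the nucleus and raises most synthesis genes when sterols run low. Insig1 is itself a classic target of SREBP-2, whereas Insig2 is not. When sterols are in excess, the oxysterol receptor LXR alpha (Nr1h3) raises the exporters Abca1, Abcg5 and Abcg8.

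RefSeq promoter windows (build GRCm38.p6, 250 bases before to 50 bases after the gene start) were at hand for 24 of the member genes, in 32 windows. The letters TCACNCCAC, searched on both strands for the sterol regulatory element, occurred in 1.24% of the 32851 windows of all genes. Among the members they occurred in 1 of the 32 windows, that of Hmgcs1, from -137 to -129 relative to the start. Other spellings of the element were not searched. The letters CACGTG, an E-box that reads the same on both strands, occurred in 7.15% of all windows and in 7 of the 32 member windows. Those windows belonged to 6 genes (Abca1, Dhcr7, Hsd17b7, Insig1, Sc5d and Scap). The letters CCAAT, a motif of the promoter factor NF-Y, occurred on either strand in 37.4% of all windows, and in 20 of the 32 member windows, each of a different gene. These matches are descriptions of letters and were not tested. The 5 windows printed here belong to genes that the results turn on: Hmgcs1 (chr13:119690101-119690400, plus strand), the enzyme that opens the measured pathway; Mvd (chr8:122443373-122443672, minus strand), the enzyme with the widest gap between LDC males and LDC females; Insig1 (chr5:28071162-28071461, plus strand) and Insig2 (chr1:121332540-121332839, minus strand), which differed between control males and control females in opposite directions; and Tm7sf2 (chr19:6067801-6068100, minus strand), the synthesis enzyme with the smallest difference between the sexes in controls. The window of Insig2 is 1 of 3 for that gene and was shown because it alone of them held matches to CCAAT. Each is written from 5′ to 3′ on the strand of its gene, and capitals mark matches to the sterol regulatory element and to CCAAT or its complement ATTGG.
Hmgcs1: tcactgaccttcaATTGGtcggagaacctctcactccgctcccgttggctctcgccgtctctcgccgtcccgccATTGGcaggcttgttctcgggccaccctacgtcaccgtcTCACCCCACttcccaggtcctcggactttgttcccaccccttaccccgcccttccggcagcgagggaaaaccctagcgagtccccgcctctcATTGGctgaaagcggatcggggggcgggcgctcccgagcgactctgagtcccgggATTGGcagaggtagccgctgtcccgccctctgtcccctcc
Mvd: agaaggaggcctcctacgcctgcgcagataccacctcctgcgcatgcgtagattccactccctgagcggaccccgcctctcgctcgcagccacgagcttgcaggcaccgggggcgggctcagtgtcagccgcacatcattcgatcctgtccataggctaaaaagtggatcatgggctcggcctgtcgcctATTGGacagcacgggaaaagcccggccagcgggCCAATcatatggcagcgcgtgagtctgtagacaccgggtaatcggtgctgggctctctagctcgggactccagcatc
Insig1: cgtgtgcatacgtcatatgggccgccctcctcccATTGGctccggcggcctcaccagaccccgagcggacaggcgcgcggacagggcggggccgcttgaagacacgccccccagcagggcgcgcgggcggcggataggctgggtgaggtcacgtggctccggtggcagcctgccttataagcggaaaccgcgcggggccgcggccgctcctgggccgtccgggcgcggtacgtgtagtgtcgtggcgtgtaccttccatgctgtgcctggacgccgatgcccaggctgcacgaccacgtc
Insig2: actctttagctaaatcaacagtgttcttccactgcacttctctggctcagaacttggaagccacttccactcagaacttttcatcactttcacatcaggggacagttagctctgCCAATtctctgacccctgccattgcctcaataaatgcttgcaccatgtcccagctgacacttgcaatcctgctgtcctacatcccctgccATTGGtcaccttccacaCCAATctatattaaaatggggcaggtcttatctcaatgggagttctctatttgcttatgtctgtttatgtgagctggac
Tm7sf2: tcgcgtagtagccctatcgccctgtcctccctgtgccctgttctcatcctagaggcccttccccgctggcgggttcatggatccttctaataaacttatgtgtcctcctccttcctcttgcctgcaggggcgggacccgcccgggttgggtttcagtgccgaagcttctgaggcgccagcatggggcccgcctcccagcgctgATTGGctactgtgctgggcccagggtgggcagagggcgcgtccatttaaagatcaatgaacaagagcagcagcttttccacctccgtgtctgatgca

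Signals were the deposited MAS 5.0 values, scaled to a common trimmed mean, and array medians lay between 95.1 and 110. Correlation of log2 signals between arrays of the same group ranged from 0.914 to 0.941. Labelled sex was borne out in all 12 libraries, with Xist at 16258 to 18731 in females and 72.3 to 134 in males and Eif2s3y at 1.02 to 9.73 in females and 2234 to 2972 in males. The summed signal of 7 hepatocyte markers lay between 263578 and 332390 on all arrays. Differences were tested with limma on log2 signals, with p-values adjusted by Benjamini-Hochberg over 27022 probe sets, and a gene was called at an adjusted p under 0.05. Where a gene had several probe sets, the one with the highest mean stood for it. A signal compares arrays for 1 probe set and does not rank genes against each other.

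Livers of males held less of most synthesis transcripts than livers of females, with or without cadmium. In controls, 16 of the 28 genes were called lower in males and 1, Insig2, was called higher, while 4.14% of all probe sets tested were called lower and 3.59% higher. In LDC mice 13 were called lower in males and 0 higher, against 3.29% and 3% of all probe sets. By the methods' t-test none of the 28 passed adjustment in controls and 2 (Pmvk and Fdft1) passed in LDC mice, where that test called 0.0259% and 1.2% of all probe sets. Its unadjusted p was under 0.05 for 17 and 18 members, against 14.9% and 18% of all probe sets. Nearly all of the calls were enzymes: 15 of 17 were lower in control males and 12 of 17 in LDC males, and all 17 had a negative log2 difference in both comparisons, as 51.5% of all probe sets had in controls and 52.3% in LDC mice. The median log2 difference of the enzymes, males minus females, was -1.31 in controls (range -1.72 to -0.21) and -0.94 in LDC mice (range -2.17 to -0.25), where the medians of all probe sets tested were -0.017 and -0.022. The 11 control, efflux and uptake genes had medians of -0.032 and -0.12.

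The arrays of the sexes seldom overlapped for the enzymes. In controls, 17 of the 28 genes had all male arrays below all female arrays and 1 (Insig2) had them above, which was true of 13% and 11.6% of all probe sets. In LDC mice the counts were also 17 and 1 (Mylip), against 14.4% and 12.5%. With exposure set aside, the 6 male arrays lay below the 6 female arrays for 14 of 17 enzymes, all but Mvk, Tm7sf2 and Hsd17b7, and for 1 of the other 11 genes, Insig1, whereas 3.46% of all probe sets showed this. No member had all 6 male arrays above the female ones, which 3.21% of probe sets did. Averaged over the 17 enzymes, log2 signals were 12.46, 12.72 and 12.73 in control females, 12.24, 12.44 and 12.43 in LDC females, 11.74, 11.64 and 11.10 in control males and 11.53, 11.47 and 11.37 in LDC males. In each group 1 array was the lowest for most of the 17 enzymes: control female 1 for 13, LDC female 1 for 12, control male 3 for 14 and LDC male 3 for 13. Control males had the widest spread, with a median SD of 0.389 on the log2 scale where the other groups had 0.164 to 0.186.

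**Figure D1:**
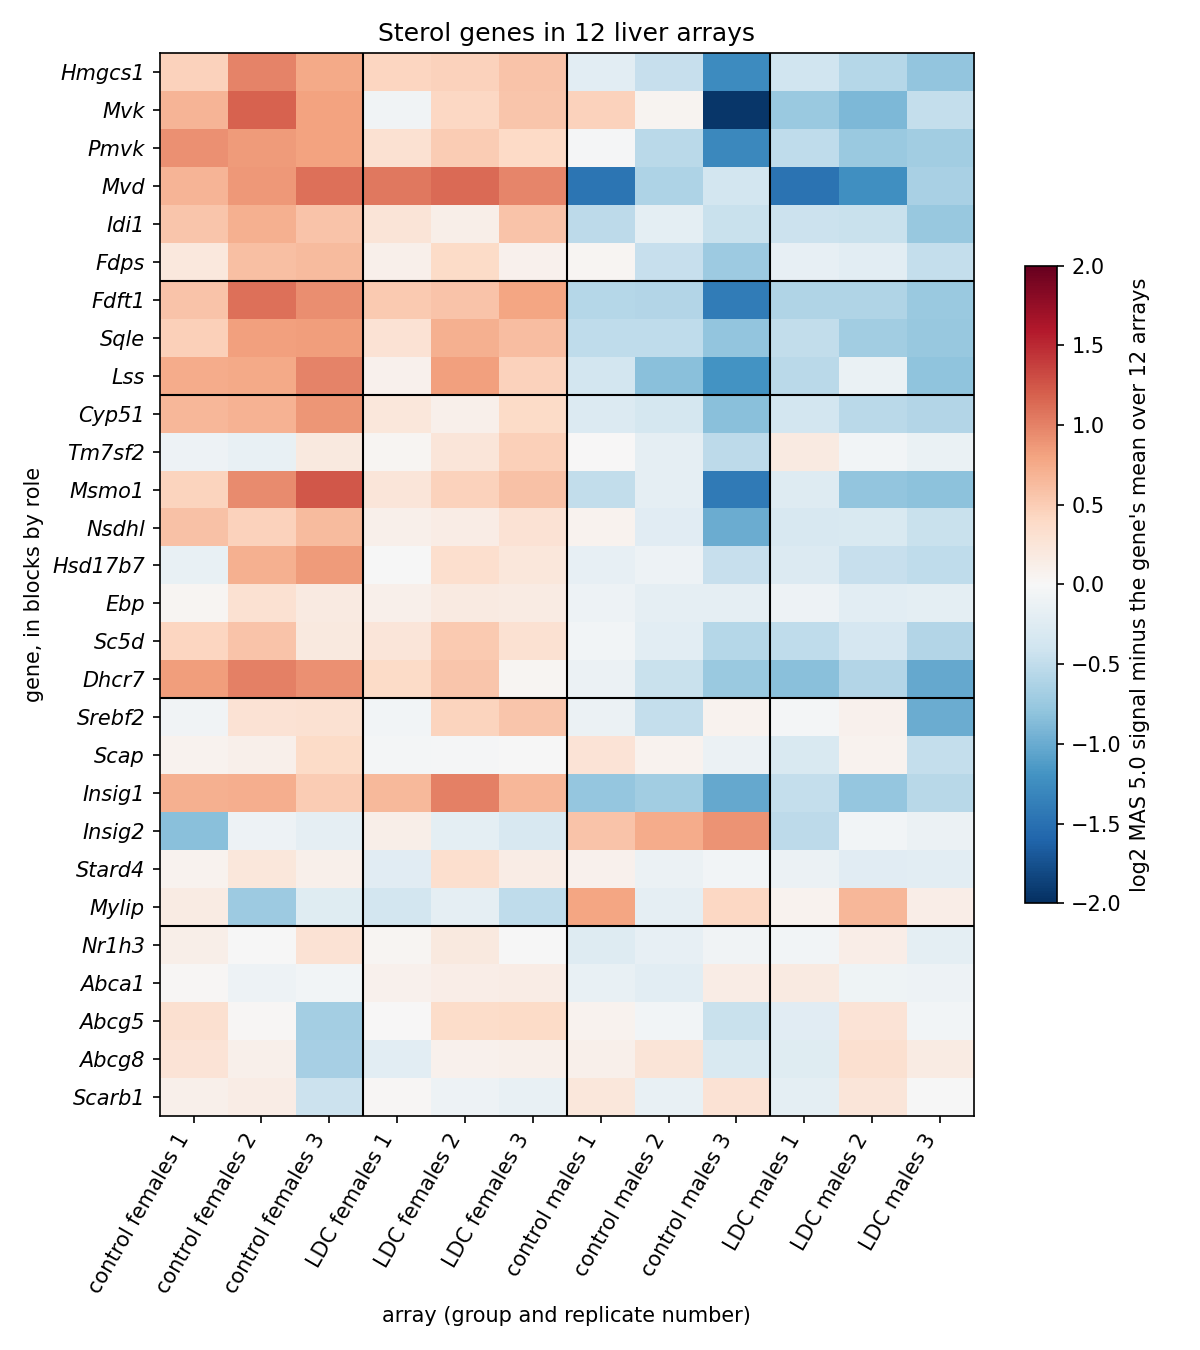
Log2 signal of the 28 measured genes (lines, in blocks by role) on the 12 arrays (columns, by group), drawn as the difference from the mean of that gene over the 12 arrays on a colour scale from -2 to 2. The enzyme blocks are mostly above their means in the 6 female arrays and below them in the 6 male arrays, and the efflux block shows no such split.

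The mevalonate arm was lower in males at most of its steps, with 5 of 6 measured enzymes called in controls and 4 of 6 in LDC mice. Its median log2 difference, males minus females, was -1.37 in controls and -1.03 in LDC mice. Hmgcs1, the cytosolic HMG-CoA synthase, had signals of 24461, 35246 and 30042 in control females, 23915, 24392 and 26131 in LDC females, 15249, 12911 and 7419 in control males and 13364, 11849 and 10220.1 in LDC males. Every male array was below every female array, and control male 3 was the lowest of the 12. Pmvk, phosphomevalonate kinase, gave 3314, 3154 and 3072 in control females, 2174, 2487 and 2322 in LDC females, 1736, 1208 and 722 in control males and 1240.3, 1047 and 1084 in LDC males. Mvd, which decarboxylates mevalonate diphosphate, read 775, 878 and 1035 in control females, 1001, 1057 and 953 in LDC females, 175, 316 and 375 in control males and 174, 206 and 307 in LDC males. Both kept the male arrays apart from the female ones, and for Mvd the control and LDC arrays overlapped within each sex. Idi1, the isomerase that interconverts the isoprenoid units, had 14280.2, 15856 and 14491 in control females, 11631, 10536 and 14399 in LDC females, 6808, 8539 and 7183 in control males and 7262, 7149.7 and 5765 in LDC males. Fdps, which joins those units to farnesyl diphosphate, had 14519.9, 18945 and 19354 in control females, 13475, 16278 and 13212 in LDC females, 12811, 9070.3 and 7526 in control males and 11140.5, 10774 and 8944 in LDC males. The sexes separated for both, with a narrower gap for Fdps, whose highest male array and lowest female array were close. Mvk, mevalonate kinase, had 574, 818 and 629 in control females, 343, 481 and 529.5 in LDC females, 494, 374 and 93.9 in control males and 215, 193 and 258 in LDC males. Its males were below its females within controls and within LDC mice, but the 2 higher control males overlapped the LDC females, and control male 3 was far below the rest.

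In the limma fit the log2 differences between control males and control females were -1.38 (SE 0.20, adjusted p = 0.000825) for Hmgcs1, -1.47 (SE 0.22, adjusted p = 0.000909) for Pmvk and -1.70 (SE 0.27, adjusted p = 0.00127) for Mvd. Idi1 stood at -0.99 (SE 0.13, adjusted p = 0.000246) and Fdps at -0.87 (SE 0.17, adjusted p = 0.00592), and Mvk at -1.36 (SE 0.45, adjusted p = 0.0814) was not called. In LDC mice the same differences were -1.08 (SE 0.20, adjusted p = 0.00504) for Hmgcs1, -1.05 (SE 0.22, adjusted p = 0.00977) for Pmvk, -2.17 (SE 0.27, adjusted p = 0.000164) for Mvd, which is 4.51-fold lower, and -0.85 (SE 0.13, adjusted p = 0.000787) for Idi1. Fdps at -0.48 (SE 0.17, adjusted p = 0.123) and Mvk at -1.01 (SE 0.45, adjusted p = 0.232) were not called in LDC mice. The calls of both changed with single arrays left out. Without control male 1, Mvk was called in controls (-1.83, adjusted p = 0.0242) and Fdps in LDC mice (adjusted p = 0.0479). Without control male 3, Mvk was called in LDC mice (adjusted p = 0.0151). Control males are not in the comparison of LDC mice. Leaving 1 out changed the shared spread and the adjustment there, not the difference. The SD of Mvk in control males was 1.28 on the log2 scale, the widest of any enzyme in any group.

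The 3 enzymes that form squalene and lanosterol were all called lower in males in both comparisons, with median log2 differences of -1.63 in controls and -1.18 in LDC mice. Fdft1, squalene synthase, had signals of 8950.2, 12868 and 11453 in control females, 8594, 8897 and 10343 in LDC females, 4048, 4016 and 2284 in control males and 3967, 3972 and 3576 in LDC males. Sqle, the epoxidase that prepares squalene for ring closure, had 4539, 5744 and 5829 in control females, 3976, 5319 and 4975 in LDC females, 2282, 2294 and 1893 in control males and 2320.0, 2005 and 1929.9 in LDC males. Lss, which closes the ring to lanosterol, had 2053, 2069.9 and 2441 in control females, 1295, 2153 and 1684 in LDC females, 948, 689 and 538 in control males and 844, 1123 and 704 in LDC males. No male array reached a female array for any of them. For Fdft1 the log2 differences were -1.72 (SE 0.19, adjusted p = 6.33e-05) in controls and -1.27 (SE 0.19, adjusted p = 0.000756) in LDC mice. For Sqle they were -1.31 (SE 0.14, adjusted p = 4.12e-05) and -1.18 (SE 0.14, adjusted p = 9.84e-05), and for Lss -1.63 (SE 0.23, adjusted p = 0.000483) and -0.94 (SE 0.23, adjusted p = 0.0219). The Lss call in LDC mice was lost when LDC female 2 or 3 or LDC male 1 or 3 was left out (adjusted p up to 0.109).

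From lanosterol to cholesterol, 7 of 8 enzymes were called lower in males in controls and 5 of 8 in LDC mice, with median log2 differences of -0.83 and -0.67. Cyp51, the P450 that removes a methyl group from lanosterol, had 7453, 7637 and 8729 in control females, 5519, 5079.8 and 6136 in LDC females, 3882, 3707 and 2634 in control males and 3659, 3244 and 3147 in LDC males. Its 4 groups fell in 2 tiers by sex, and within females the LDC arrays were all below the control arrays. Msmo1, a methylsterol monooxygenase, had 13619.6, 19287 and 23695 in control females, 11789.9, 13841 and 15062 in LDC females, 7148, 8809 and 3766 in control males and 8396, 5801 and 5672 in LDC males. Nsdhl, the dehydrogenase that acts with it in demethylation, had 7643, 6976 and 7849 in control females, 5429, 5651 and 6214 in LDC females, 5339, 4342 and 2553 in control males and 4077, 4125 and 3715 in LDC males. For both the highest male array stayed under the lowest female array, by little for Nsdhl, and control male 3 was the lowest of all. Hsd17b7, the ketosteroid reductase of the same complex, had 2029, 3682 and 4035 in control females, 2241, 2827 and 2618 in LDC females, 2008, 2083 and 1627 in control males and 1862, 1626 and 1568 in LDC males. Control female 1 was at the level of the control males, far below the other 2 control females, so the sexes overlapped in controls and not in LDC mice.

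Ebp, the sterol isomerase, had 13121, 15793 and 14551 in control females, 13778, 14529.8 and 14422 in LDC females, 11997, 11278 and 11378 in control males and 11974, 11145 and 11214 in LDC males. Its male and female arrays were apart but close, and its spread was small in most groups. Sc5d, the sterol desaturase, had 30111, 33272 and 25757 in control females, 26406, 32030.1 and 27788 in LDC females, 21619.7, 19362 and 15064 in control males and 15674, 17833 and 14865 in LDC males. Dhcr7, the reductase that ends the branch through 7-dehydrocholesterol, had 2702, 3048 and 2859 in control females, 1977, 2222 and 1561 in LDC females, 1388, 1107 and 907 in control males and 849.9, 1007 and 743 in LDC males. For Dhcr7 the control females were highest, the LDC females next, and both male groups below them, overlapping each other. Tm7sf2, a sterol reductase related to the lamin B receptor, had 5836, 5689 and 7158 in control females, 6423, 7400.0 and 8752 in LDC females, 6318, 5570.2 and 4365 in control males and 7126, 6057 and 5720.0 in LDC males. Its sexes overlapped in controls and in LDC mice, though all control males lay below all LDC females.

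The log2 differences of these enzymes, males minus females in controls, were -1.24 (SE 0.14, adjusted p = 6.91e-05) for Cyp51, -1.57 (SE 0.26, adjusted p = 0.00206) for Msmo1, -0.94 (SE 0.19, adjusted p = 0.00708) for Nsdhl and -0.72 (SE 0.21, adjusted p = 0.0469) for Hsd17b7. Ebp had -0.32 (SE 0.082, adjusted p = 0.0256), Sc5d -0.68 (SE 0.13, adjusted p = 0.00589), Dhcr7 -1.36 (SE 0.17, adjusted p = 0.000213) and Tm7sf2 -0.21 (SE 0.15, adjusted p = 0.457), the last not called. In LDC mice they were -0.73 (SE 0.14, adjusted p = 0.00439) for Cyp51, -1.05 (SE 0.26, adjusted p = 0.0281) for Msmo1, -0.32 (SE 0.082, adjusted p = 0.0325) for Ebp, -0.83 (SE 0.13, adjusted p = 0.00125) for Sc5d and -1.14 (SE 0.17, adjusted p = 0.000823) for Dhcr7. Nsdhl at -0.54 (SE 0.19, adjusted p = 0.121), Hsd17b7 at -0.60 (SE 0.21, adjusted p = 0.108) and Tm7sf2 at -0.25 (SE 0.15, adjusted p = 0.403) were not called in LDC mice. Hsd17b7 kept its call in controls only without control female 1 (adjusted p = 0.000781) and lost it without any other array (adjusted p up to 0.166). Ebp lost its call in controls without control female 2 or 3 or control male 2 or 3 (adjusted p up to 0.0836), and in LDC mice without any 1 of the 6 LDC arrays (up to 0.113). Msmo1 lost its call in LDC mice without LDC female 2 or 3 or LDC male 2 or 3 (up to 0.111). In the other direction, Nsdhl was called in LDC mice without control male 3 (adjusted p = 0.006) and Hsd17b7 without control female 1 (adjusted p = 0.0101). Control arrays are not in the comparison of LDC mice, nor LDC arrays in that of controls. Leaving out such an array changed the shared spread and the adjustment, not the difference.

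**Figure D2:**
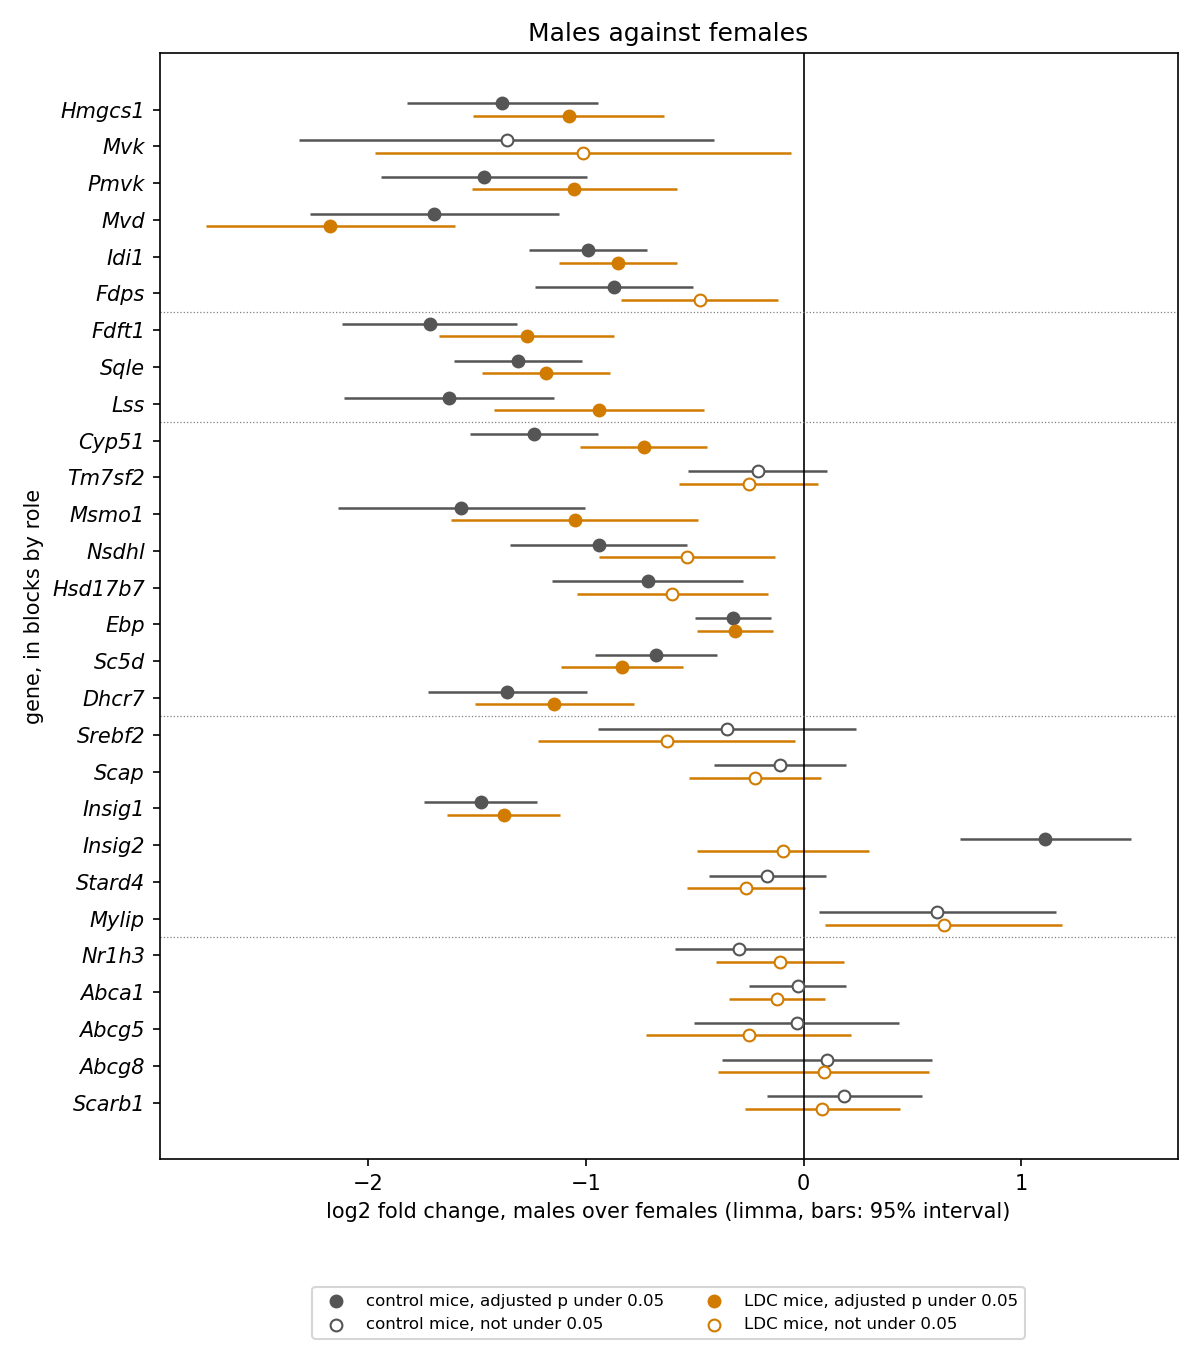
Log2 difference in signal, males over females, for each of the 28 genes, in control mice (grey) and LDC mice (orange); points are limma estimates from 3 arrays per group, bars are 95% intervals, and filled points have an adjusted p under 0.05. Every synthesis enzyme lies left of 0 in both exposures, Insig1 lies with them, Insig2 lies right of 0 in controls only, and the efflux and uptake genes lie near 0.

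Among the 6 genes of sterol sensing and SREBP control, the Insig retention proteins parted. Insig1, the Insig gene that SREBP-2 induces, had signals of 15461, 15612 and 13452 in control females, 14842, 18995 and 14944 in LDC females, 5527, 5823 and 4638 in control males and 6763, 5519 and 6434 in LDC males. The highest male array, at 6763, was below the lowest female array, at 13452, and control and LDC arrays overlapped within each sex. Its log2 difference, males minus females, was -1.48 (SE 0.12, adjusted p = 4.23e-06) in controls, 2.79-fold lower, and -1.38 (SE 0.12, adjusted p = 9.59e-06) in LDC mice. Insig2, which holds SREBP-2 back in the same way but answers to other signals, had 3747, 6242 and 5924 in control females, 7304, 5845 and 5353 in LDC females, 9944, 11216 and 12514 in control males and 4669.6, 6473 and 6212 in LDC males. The control males stood above all 9 other arrays, and the LDC males lay in the range of the females. Its difference between the sexes was 1.11 (SE 0.18, adjusted p = 0.00184) in controls, 2.16-fold higher in males, and -0.094 (SE 0.18, adjusted p = 0.849) in LDC mice.

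The other 4 control genes were not called between the sexes by the probe set with the highest mean. Scap, the escort of SREBP-2, had 3115, 3191 and 3850.3 in control females, 2895, 2927 and 2966 in LDC females, 3592, 3118 and 2724 in control males and 2411, 3098 and 2121 in LDC males. Its arrays overlapped between the sexes in controls and in LDC mice. Srebf2, the gene of SREBP-2, had 373, 482 and 486 in control females, 379, 538 and 578 in LDC females, 362, 282 and 412 in control males and 383, 418 and 199 in LDC males. All but the lowest LDC male lay between 282 and 578, with the sexes mixed. Stard4, a sterol carrier protein, and Mylip, a ubiquitin ligase that marks lipoprotein receptors for degradation, had log2 differences of -0.17 (adjusted p = 0.496) and 0.61 (adjusted p = 0.174) in controls and -0.27 (adjusted p = 0.275) and 0.64 (adjusted p = 0.175) in LDC mice. Over the 6 arrays of each sex, Stard4 ranged from 2925 to 4319 in females and 2921 to 3633 in males, and Mylip from 590.0 to 1093 and 862 to 1691.

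None of the 5 genes of the oxysterol receptor, efflux and HDL uptake was called between the sexes in either exposure by limma. Its unadjusted p was under 0.05 for 1 of them in controls and 0 in LDC mice. The share of all probe sets at that limma p is not reported here. The methods' t-test called none of these 5 genes after adjustment either. The median log2 differences were -0.026 in controls and -0.11 in LDC mice. For Abca1, which loads cholesterol onto lipid-poor apolipoprotein A-I, the signals were 10369, 9473 and 9820.5 in control females, 10798, 11129 and 11358 in LDC females, 9236, 8789 and 11259 in control males and 11588, 9663 and 9463 in LDC males. Its male and female arrays overlapped in controls and in LDC mice. Abcg5 and Abcg8, the partners in the transporter that sends sterols into bile, had control-sex log2 differences of -0.032 (adjusted p = 0.955) and 0.11 (adjusted p = 0.838), and Nr1h3 and the HDL receptor Scarb1 had -0.30 (adjusted p = 0.227) and 0.19 (adjusted p = 0.567). Nr1h3 was the only one with all control males under all control females, at 729, 781 and 835 against 949, 869 and 1068, and its unadjusted p was 0.048. Abcg5 ranged from 1871 to 3902 in females and 2202 to 3617 in males, Abcg8 from 923 to 1768 and 1182 to 1822, and Scarb1 from 1921 to 2879 and 2267 to 3179, with the sexes overlapping for each.

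In males, 1 of the 28 genes was called between LDC and control, Insig2, which was lower in LDC males; 0.118% of all probe sets were called lower and 0.159% higher in this comparison. Control males averaged 11225 ± 1285 (SD, n = 3) and LDC males 5785 ± 975 (SD, n = 3), with no overlap among the arrays given for it earlier. The log2 difference was -0.96 (SE 0.18, 95% interval -1.36 to -0.57), a 1.95-fold decrease, with a limma adjusted p of 0.0448. The study's criterion for the arrays was a 2-fold change with an unadjusted p under 0.05. No member reached that fold change between LDC and control in males or in females. Insig2 was also the only member with all LDC males below all control males, which 7.92% of probe sets showed, and none lay wholly above, which 8.62% did. The call sat at the threshold. It held under 8 of 13 other settings and was lost with quantile normalisation (adjusted p = 0.0612), with the mean over its probe sets (0.129), without an intensity trend (0.272), in the methods' t-test (0.397) and with a replicate block (0.0546). When arrays were left out one at a time it held without control female 1 (0.00787) or control female 2 (0.0382) and was lost without any of the other 10, control female 3, the 3 control males, the 3 LDC females or the 3 LDC males (0.0512 to 0.17), while the log2 difference stayed between -1.05 and -0.82 over all these fits. Female arrays are not in the comparison of LDC with control males, so leaving 1 out changed the shared spread and the adjustment, not the difference. The control male arrays used here also enter the comparison of the sexes in controls, so the higher Insig2 of control males over control females and its decrease in LDC males share those 3 arrays.

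**Figure D3:**
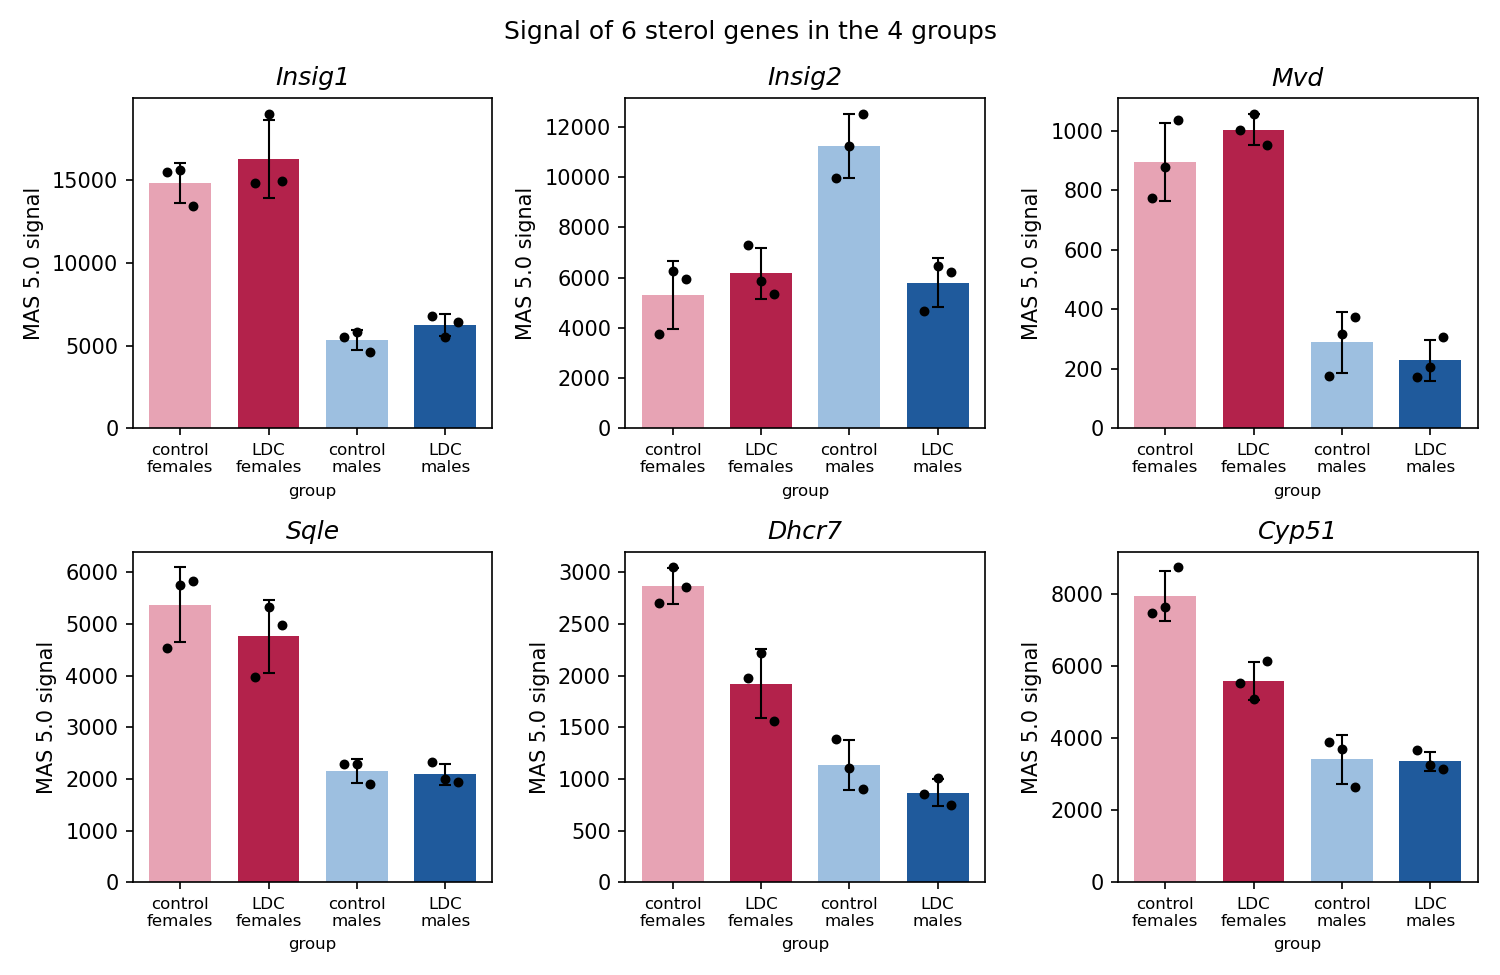
MAS 5.0 signal (linear axis from 0) of Insig1, Insig2, Mvd, Sqle, Dhcr7 and Cyp51 in the 4 groups; bars are means, whiskers SD and points the 3 arrays. Insig2 is high in control males alone, with 9944 as its lowest control male against 7304 as the highest array of any other group, while the other 5 genes are lower in both male groups than in both female groups.

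None of the 17 synthesis enzymes was called in males by limma, and 1 had an unadjusted p under 0.05. Of the 17, 10 had a negative log2 difference, where 49.9% of all probe sets did, and 7 a positive one, the median was -0.014 (range -0.38 to 0.31) and none separated from the controls. Beside Insig2, the members with the lowest p were Scap (log2 difference -0.31, unadjusted p = 0.0432, adjusted p = 0.468) and Dhcr7 (-0.38, unadjusted p = 0.0443, adjusted p = 0.472). In all, 3 of the 28 were lower at an unadjusted p under 0.05, where 5.08% of all probe sets were. Insig1 gave 0.23 (SE 0.12, adjusted p = 0.552), Srebf2 -0.14 (SE 0.28, adjusted p = 0.918) and Abca1 0.071 (SE 0.10, adjusted p = 0.875).

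In females, 0 of the 28 genes were called between LDC and control by limma, against 0.122% of all probe sets in either direction. An unadjusted p under 0.05 was reached by 3, against 9.01%, both by limma. The methods' t-test called 0 after adjustment, as it did of all probe sets (0%), and 5 before it, against 7.06% of all probe sets. Of the enzymes, 15 of 17 had a negative log2 difference, where 49.3% of all probe sets did, and the median was -0.29 (range -0.59 to 0.27) beside 0.0056 for all probe sets tested. All LDC females lay below all control females for 6 members (Mvk, Pmvk, Cyp51, Nsdhl, Dhcr7 and Scap), where 6.71% of probe sets did, and Abca1 was the 1 member wholly above, where 7.16% were. The lowest p belonged to Cyp51, at -0.51 (SE 0.14, 95% interval -0.80 to -0.22, unadjusted p = 0.00214, adjusted p = 0.214). Dhcr7 followed at -0.59 (SE 0.17, 95% interval -0.96 to -0.23, unadjusted p = 0.00367, adjusted p = 0.264), and then Idi1 at -0.30 (SE 0.13, 95% interval -0.57 to -0.027, unadjusted p = 0.0333, adjusted p = 0.504). Mvd and Tm7sf2 were the enzymes on the other side, at 0.17 (adjusted p = 0.897) and 0.27 (adjusted p = 0.63). Insig2 in females stood at 0.24 (adjusted p = 0.752) and Abca1 at 0.17 (adjusted p = 0.68).

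Whether cadmium acted differently in the sexes was tested as the male effect minus the female effect, and 0 of the 28 genes were called by limma, where 0.178% of all probe sets were. An unadjusted p under 0.05 was reached by 3, against 10.3%. For Insig2 the difference of effects was -1.21 (SE 0.26, unadjusted p = 0.000369, adjusted p = 0.0948), and the adjusted p ranged from 0.0761 to 0.386 over the other settings and from 0.0524 to 0.211 with an array left out. A decrease in males and no call in females is thus not shown to be a difference between the sexes. Cyp51 had 0.50 (unadjusted p = 0.0205, adjusted p = 0.392) and Lss 0.69 (unadjusted p = 0.0479, adjusted p = 0.484). The enzymes' median was 0.30, with 14 of 17 positive, where 49.5% of all probe sets were.

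Averaged over both sexes, the effect of cadmium was called in 0 of the 28 genes by limma, against 0.0444% of all probe sets, and 6 had an unadjusted p under 0.05, against 9.28%. Dhcr7 had the lowest, at -0.49 (SE 0.12, unadjusted p = 0.00124, adjusted p = 0.19). The others were Insig2 (-0.36), Cyp51 (-0.26), Scap (-0.26) and Idi1 (-0.23), all lower in LDC mice, and Tm7sf2 (0.25), higher. For Insig2 this mean joins estimates of opposite sign in the sexes, of which the female one was not called.

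**Figure D4:**
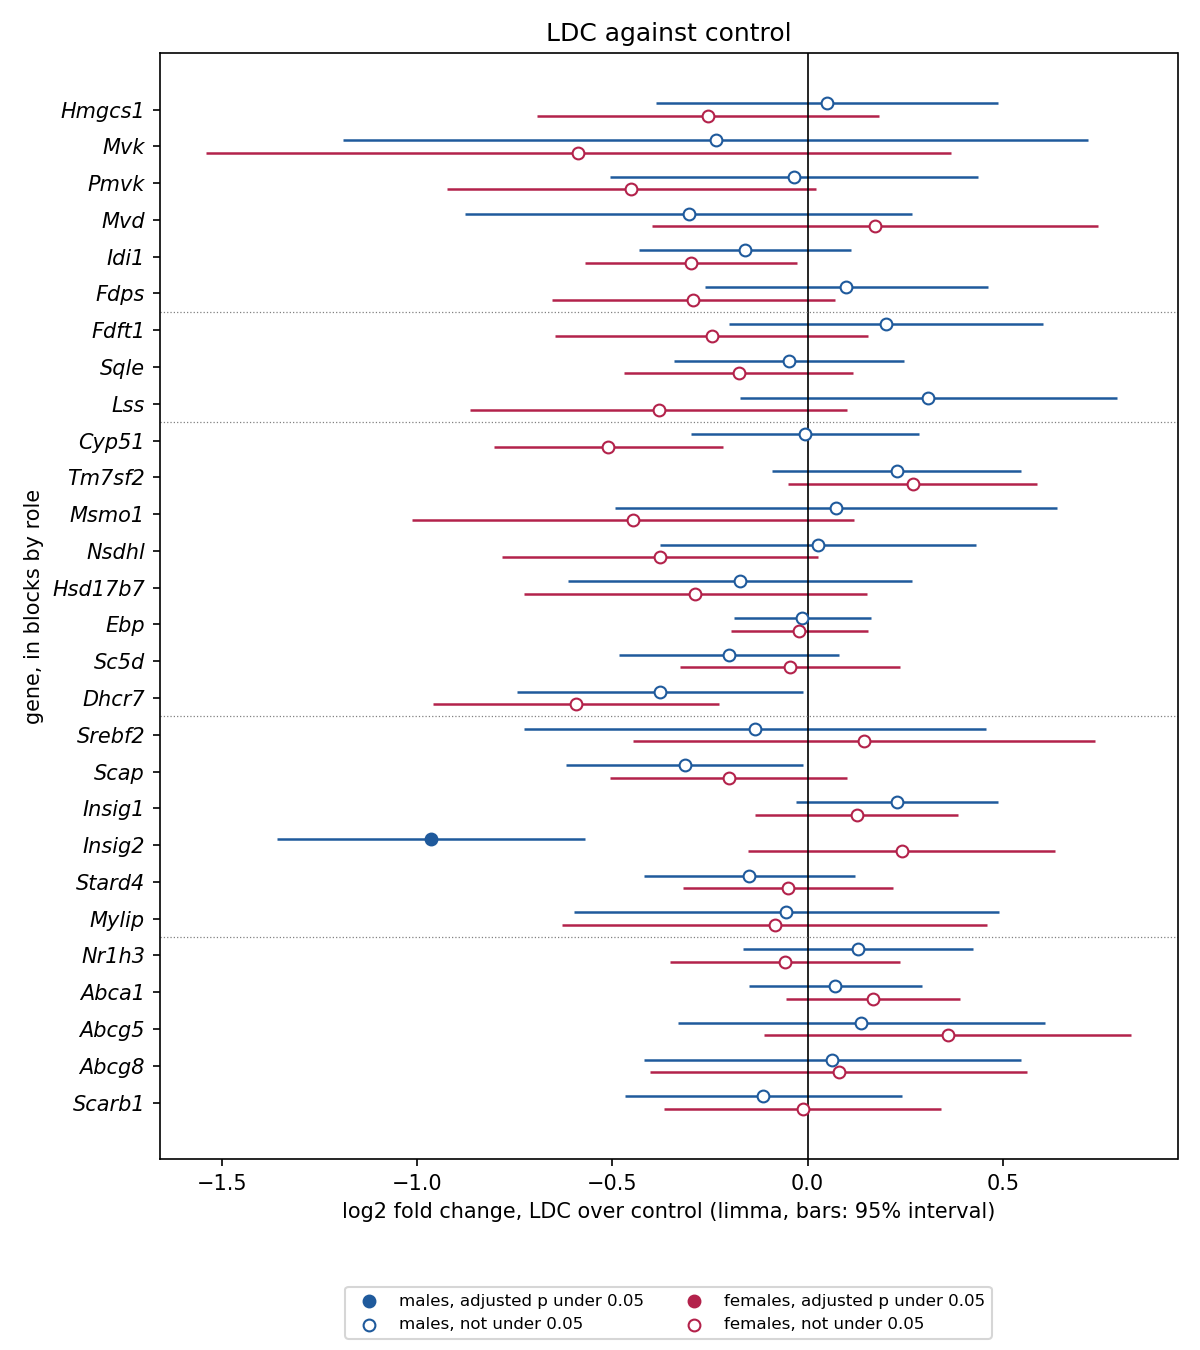
Log2 difference in signal, LDC over control, for each of the 28 genes in males (blue) and females (red); points are limma estimates from 3 arrays per group, bars are 95% intervals, and filled points have an adjusted p under 0.05. Only Insig2 in males, at -0.96, is filled, and most enzyme points of females lie left of 0, with intervals that stop short of 0 for Cyp51, Dhcr7 and Idi1.

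Of the 28 members, 17 had further probe sets, 31 in all, of which 27 were tested. In the comparison of control males with control females, 24 of the 27 had the sign of the gene's main probe set and 12 were called. The other Mvd probe set gave -3.08 (adjusted p = 9.94e-06) in controls and -3.20 (8.32e-06) in LDC mice. The others of Lss gave -2.30 (5.01e-05) and -1.76 (0.0738) in controls, and those of Sc5d -1.27 (8.49e-05) and -0.99 (0.0682). Srebf2 was called lower in males only by another probe set, in controls (adjusted p = 0.0304) and in LDC mice (-0.99, adjusted p = 0.0361), whereas the 3 others of Hsd17b7 were not called in controls (-0.36, -0.32 and -0.24). Both other Insig2 probe sets were higher in control males (0.83, adjusted p = 0.0237, and 0.75, 0.0363), and neither was called lower in LDC males, at -0.89 (adjusted p = 0.113) and -0.65 (0.274). Between LDC and control, 13 of 27 had the sign of the main probe set in males and 18 of 27 in females.

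Outside the set, 23 of 26 listed genes of related sterol handling were tested. In controls 5 were lower in males and 0 higher: Lbr, a sterol reductase of the nuclear envelope (-0.71, adjusted p = 0.00586), Npc2 and Lipa, which handle cholesterol in lysosomes (-0.66, adjusted p = 0.00177, and -0.97, adjusted p = 0.000304), Pltp, which transfers phospholipids between lipoproteins (-1.25, adjusted p = 0.00831), and Srebf1, the gene of SREBP-1 (-1.53, adjusted p = 0.0169). In LDC mice Srebf1 was lower in males (-2.17, adjusted p = 0.00166) and Stard5, a sterol carrier, higher (0.76, adjusted p = 0.00328). Of all probe sets, 4.14% were called lower and 3.59% higher in control males, and 3.29% and 3% in LDC males. The list had a median log2 difference of -0.037 in both comparisons, and limma called none of it between LDC and control in either sex. An unadjusted p under 0.05 was reached by 6 in males and 2 in females, all higher in LDC mice. In females 9.01% of all probe sets reached it in either direction. In males 5.08% were lower at that p, and the share that was higher is not reported here.

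Other transcripts moved with the same groups. Clock genes, whose level depends on the hour of sampling, were called between the sexes: Arntl was lower in males (-1.67, adjusted p = 0.0199 in controls, -1.53, adjusted p = 0.0355 in LDC mice), Nr1d2 was higher (0.71, adjusted p = 0.0144, and 0.82, adjusted p = 0.00633), Dbp was higher in control males (2.43, adjusted p = 0.0218), and Per1 in LDC males (1.27, adjusted p = 0.0186). Of the 12 clock genes 11 were tested, and Cry1 was higher in LDC than in control males (1.41, adjusted p = 0.0448). Summed signals of the 12 ran from 8278 to 13577 for control females and 15157 to 20925 for control males, and from 11911 to 18225 (females) and 22678 to 26023 (males) under LDC. The neutrophil genes S100a8, S100a9 and Ngp were lower in control males than in control females (-2.02, adjusted p = 7.11e-05, -1.82, adjusted p = 0.00611, and -1.57, adjusted p = 0.00587), the reverse in LDC mice (2.58, 2.23 and 1.42), lower in LDC than in control females (-3.17, -2.75 and -1.75), and S100a8 was higher in LDC males (1.43, adjusted p = 0.0178). Summed over 6 neutrophil markers, signals ran from 3131 to 5896 for control females and 1120 to 1535 for control males, and from 647 to 971 (females) and 3045 to 3324 (males) under LDC. No Kupffer cell or macrophage marker of 6 was called by limma, but their sums varied within groups, from 10603 to 27899 for control females and 8865 to 9316 for control males, and from 3848 to 22650 (females) and 13370 to 19031 (males) under LDC. Of the other markers, 1 of 7 tested for hepatocytes was higher in control males (Hnf4a, 0.37, adjusted p = 0.0446). So were 1 of 3 for intestine (Cdx2, 2.72, adjusted p = 0.0369) and the only 1 tested for pancreas (Cela1, 1.09, adjusted p = 0.00421). Lower there was 1 of 6 for stellate cells (Lrat, -0.98, adjusted p = 0.00175). In LDC males 1 of 3 for intestine was higher than in LDC females (Lgals4, 1.54, adjusted p = 0.0222). Vil1 of intestine and Cpa1 and Ctrb1 of pancreas lay below the filter of 5.60, at mean log2 signals of 4.86, 2.95 and 5.25. Cdx2 lay near it, at 6.19. The part of these transcripts in the results was not tested.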

How the data were processed

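Per the labels and the study's methods, the authors hybridised liver RNA to 12 arrays (4 groups of 3) and summarised probe sets with MAS 5.0 in GeneSpring 12.6.1. The deposited values are linear signal intensities, 1 per probe set and array. Here 64 control probe sets of 45101 were left out, signals were taken to log2 without a pseudocount, and the dimmest 40% of probe sets by mean log2 signal (below 5.60, or 48.6 on the linear scale) were set aside, which left 27022. All 28 member genes with a probe set of their own passed.

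One mean per group was fitted with limma 3.58.1 in R 4.3.3 (lmFit, 6 contrasts, eBayes with an intensity trend) over all 12 arrays, with Benjamini-Hochberg adjustment over all 27022 and no covariate. Intervals used 14.3 degrees of freedom. The number of arrays limits the precision. Probe sets were named through GEO's platform annotation: 34958 name 1 gene, 932 several and 9211 none, and genes were read only from the first kind. Figures were drawn with matplotlib 3.10.9.

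Members and lists were chosen with earlier results of these data known. Named with every array are members that were called, that met the study's criterion (2-fold and an unadjusted p under 0.05) in an LDC comparison, or that had 1 of the 3 lowest p-values in a comparison; others are named by role. Alternatives were other filters (none, 20th and 60th percentile), quantile normalization, median centring, a pseudocount of 32, 1 probe set per gene and the mean over a gene's probe sets. Further ones were eBayes without a trend, array weights, Student's t-test on log2 signals, separate fits, a replicate block and leaving out each array. The study's methods name ANOVA or Student's t-test for body composition and metabolic results, and no test for the arrays. The fit was also run on simulated signals with independent noise and the same spread in every group. In these data the enzymes spread more in control males, so no conclusion on the arrays is drawn from that run. The 3 arrays of a group share replicate numbers with other groups, but same-numbered arrays did not deviate together (18 pairs, correlations -0.0278 to 0.0589).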

Additional observations from a re-analysis of the deposited data

How the results depend on the processing

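The count of members called between LDC and control males was 1. It became 0 with quantile normalization, the mean over a gene's probe sets, eBayes without a trend, Student's t-test and the replicate block. It lay between 0 and 1 with single arrays left out. Between control males and control females it was 17, and was 15 without a filter, 12 without a trend and 0 in Student's t-test. It was 14 in a fit of those 6 arrays alone and lay between 15 and 17 with single arrays left out. Between LDC males and LDC females it was 13, and was 8 without a trend and 2 in Student's t-test. It was 18 in a fit of those 6 arrays alone and lay between 10 and 15 with single arrays left out. The higher count in controls than in LDC mice was thus reversed in the separate fits and in the t-test. Counts of 0 in LDC females, in the difference between sexes and in the mean over sexes stayed at 0 in each setting run. No member reversed its direction where it was called. The labels' replicate numbers recur in every group, but they did not pair the arrays (correlations from -0.0278 to 0.0589 over 18 pairs, none over 0.1); with them as a replicate block the counts were 0 in males, 16 between control sexes and 12 between LDC sexes. The causes of these shifts were not tested.

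The precision rests on 3 arrays per group. Probe sets of 1 gene differed in the size of their effects. Hour of sampling and litter were not given for the arrays, and their part was not tested.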
